A study of Saccharomyces cerevisiae with 6 samples.

Results

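The 34 genes described here encode the enzymes that build the glycosylphosphatidylinositol (GPI) anchor of budding yeast (Saccharomyces cerevisiae), the transamidase that attaches it to proteins, the enzymes that remodel it, the p24 cargo receptors that carry anchored proteins out of the endoplasmic reticulum (ER), and a pair of enzymes thought to move anchored proteins onto the cell wall. They were chosen by name, and each was measured by the 1 probe set that the platform annotation assigns to it alone, out of 5449 S. cerevisiae genes measured. All 34 were above background on all 6 arrays, and none of their probe sets carries the suffix by which the maker marks probes shared between sequences. RNA came from wild-type cells in exponential growth and was hybridised to Affymetrix arrays. In 3 cultures the cells were grown for 3 h with 0.1 µM OGT2468, which the labels give by this code name alone, and in the 3 DMSO cultures they were grown for 3 h with the solvent alone at 0.1%. The labels name no strain, mating type or ploidy, and the design text calls the samples biological. Since nothing says that they were grown on separate days, p-values measure the spread between these 6 cultures.

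A GPI anchor is a glycolipid that holds a protein to the outer face of the membrane. It is built step by step on phosphatidylinositol in the ER, where sugars and ethanolamine phosphate groups are added, and it is then joined whole to the end of a newly made protein. Its lipid is remodelled and some of its side groups are removed before the protein leaves the ER in COPII-coated vesicles. In yeast many GPI proteins end up linked to the glucan of the cell wall, so the pathway supplies both plasma membrane enzymes and wall mannoproteins.

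The median deposited intensity of the named probe sets lay between 691 and 842 on the OGT2468 arrays, against 786 to 1150 on the DMSO arrays (exact two-sided permutation test, p = 0.2, where 3 against 3 cannot go below 0.1). The arrays were therefore brought to 1 distribution by quantile normalization before testing, and all intensities below are normalized ones unless called deposited. RNA integrity, read from the signal at the 3' end over that at the 5' end of ACT1, SPT15 and SRB4, overlapped between the groups. Of markers of the a mating type, 3 of 7 fell, and their summed intensity was 403 to 419 in OGT2468, against 755 to 896 in DMSO. Of alpha markers 2 of 5 fell, with sums of 31044 to 33587 in OGT2468 and 38626 to 39610 in DMSO. On every array the alpha sum was far above the a sum. None of the 12 markers was at 0 on any array. On no OGT2468 array did ASG7 or AGA2 of the a list exceed background, and each did so on 2 of the 3 DMSO arrays. Over all tested probe sets 0.758% were lower. In the fits that leave out 1 array, 1 to 3 of the a markers were lower and 0 to 1 of the alpha markers. Both alpha calls, MF(ALPHA)2 and HMLALPHA1, were lost in each of these fits and with no scaling, control scaling or upper-quartile scaling. A pseudocount of 1 and the replicate block lost them too. By contrast, 4 of 5 alpha markers were lower with a pseudocount of 64, dim probe sets left out or the named probe sets alone. In the last of these 3.69% of all probe sets were lower. In the main fit all 5 alpha and 4 of 7 a markers had OGT2468 values below every DMSO value, as did 16.4% of all named genes. The part of these markers in the results below was not tested.

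Of the 34 genes 3 rose in OGT2468 and none fell at a limma adjusted p under 0.05. They were MCD4, GWT1 and DFG5, which act at 3 separate points of the pathway. In a bulk culture, more cells with a transcript and more transcript per cell cannot be told apart. By the same test 1.83% of all 8968 tested probe sets were higher and 0.758% lower, or 2.72% and 1.10% of the 5449 named genes, and the 3 risen genes are 8.82% of the 34. The median log2 change of the 34 was 0.03, against -0.02 over all named genes. In 9 of the 34 (26.5%) each OGT2468 array was higher than every DMSO array, against 15.5% of all named genes. None of the 34 had the opposite pattern, which 16.4% of all named genes showed. These counts moved with the scaling, to 1 gene higher and 3 lower with no scaling between arrays, 3 and 7 with scaling on the hybridization controls, and 6 and 1 with scaling on the upper quartile. The shares of all named genes under these scalings were not computed. Their median change moved as well, to -0.27 with no scaling and -0.18 with control scaling. At an unadjusted p under 0.05 the same fit added the 4 p24 genes to the 3, and again none that fell. The share of all probe sets at that looser limit was not computed, so this count has no background beside it.

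**Figure D1:**
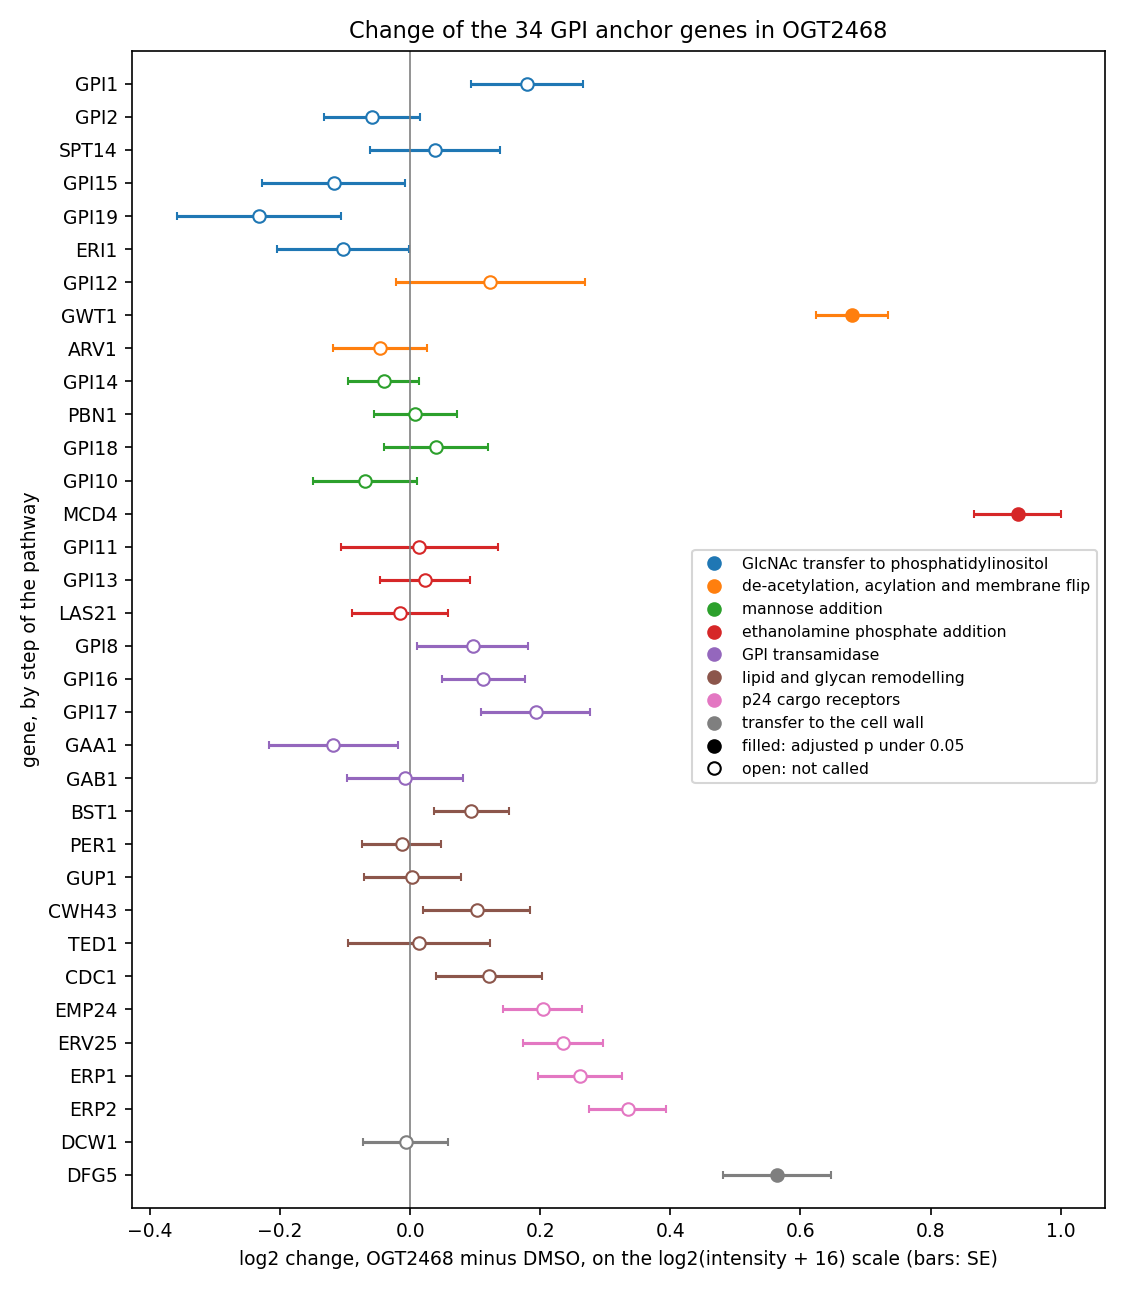
Log2 change of each of the 34 genes, OGT2468 minus DMSO, ordered by pathway step and coloured by role, with bars of 1 SE from the limma fit (3 arrays per group). MCD4 (0.93), GWT1 (0.68) and DFG5 (0.56) stand apart as filled points, the 4 p24 genes lie between 0.20 and 0.33, and the other genes lie between -0.23 and 0.19.

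MCD4 (YKL165C), the transferase that places ethanolamine phosphate on the first mannose of the anchor, had the largest change of the 34. Its intensity was 2446, 2482 and 2322 on the OGT2468 arrays, against 1206, 1328 and 1240 on the DMSO arrays. The lowest treated culture was far above the highest DMSO culture. The rise was 1.91-fold, or 0.93 ± 0.07 in log2 units (SE, 3 cultures per group; limma adjusted p = 0.00285). In the deposited values the groups did not overlap either, at 2494, 2136 and 1858 in OGT2468 and 1253, 1257 and 1645 in DMSO. The call held without any 1 array (adjusted p 0.0136 to 0.0244) and with scaling on the hybridization controls (adjusted p = 0.0429), but not with no scaling between arrays, where the change was 0.64 (adjusted p = 0.221).

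The other genes that add ethanolamine phosphate did not pass. GPI13, the transferase for the third mannose, was at 1746, 1908 and 1973 in OGT2468 and at 1856, 1795 and 1881 in DMSO. Its groups overlapped, with a log2 change of 0.02 and a 95% interval of -0.15 to 0.19. LAS21, also called GPI7, which modifies the second mannose, had a change of -0.02 (interval -0.20 to 0.17), and GPI11, a partner of these transferases, one of 0.01 (interval -0.28 to 0.31). The change of MCD4 exceeded that of GPI13 by 0.91 and that of LAS21 by 0.95 on the log2 scale. An exact two-sided permutation test of each difference over the 6 cultures gave p = 0.1, the smallest it can give, for both. Since MCD4 was already called, and p cannot fall lower, this test cannot decide whether the changes differ.

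GWT1 (YJL091C), the acyltransferase that puts a fatty acid on the inositol ring, was the second member to rise. It was at 1421, 1350 and 1367 in OGT2468, against 845, 865 and 856 in DMSO. Both groups were tight and lay far apart. The rise was 1.60-fold, or 0.68 ± 0.06 in log2 units (SE, 3 cultures per group; limma adjusted p = 0.00385). It held without any 1 array (adjusted p 0.0214 to 0.0330) but not with no scaling (change 0.39, adjusted p = 0.350), control scaling (0.49, adjusted p = 0.124) or the replicate number as a block (adjusted p = 0.0674). In the deposited values 1 DMSO culture, at 1150, lay above the lowest OGT2468 culture, at 1098, on the array with the highest median of all 6.

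The genes that act just before and after GWT1 did not pass. GPI12, the de-acetylase that precedes it, was at 790, 700 and 942 in OGT2468 and at 759, 832 and 636 in DMSO. The spread between its cultures was wide, and its change of 0.12 had an interval of -0.23 to 0.48. ARV1, an ER membrane protein linked to the delivery of the early anchor precursor, had a change of -0.05 (interval -0.22 to 0.13).

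DFG5 (YMR238W), which with DCW1 encodes a pair of related, themselves GPI-anchored proteins needed to build the wall, was the third member to rise. It was at 3153, 3272 and 3261 in OGT2468 and at 1955, 2292 and 2306 in DMSO. The groups lay apart, with DMSO replicate 1 below the other two DMSO cultures. The rise was 1.48-fold, or 0.56 ± 0.08 in log2 units (SE, 3 cultures per group; limma adjusted p = 0.0288). This call was lost without any 1 array, with adjusted p of 0.0568 when DMSO replicate 1 was left out and up to 0.116 when OGT2468 replicate 3 was, while the change stayed between 0.49 and 0.62. It was also lost with control scaling (0.39, adjusted p = 0.225) and with no scaling (0.29, adjusted p = 0.436). With no scaling DMSO replicate 3, at a deposited 2952, was above OGT2468 replicates 2 and 3, at 2841 and 2666. Upper-quartile scaling (adjusted p = 0.0536), a pseudocount of 1 (0.0584) and the replicate block (0.105) lost the call too.

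DCW1 (YKL046C), the partner of DFG5, did not show a rise of that size. Its intensity was 2157, 2122 and 1974 in OGT2468 and 2170, 2081 and 2030 in DMSO, and the groups overlapped. The log2 change was -0.01, with an interval of -0.17 to 0.15, which excludes the change of its partner. The change of DFG5 exceeded that of DCW1 by 0.57, with p = 0.1 in the exact two-sided permutation test, again the smallest possible. In all, 3 such pairs of members were compared, each p was 0.1, and adjustment over the 3 leaves it at 0.1. Each pair held a gene already called, so these tests cannot decide whether the changes differ.

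**Figure D2:**
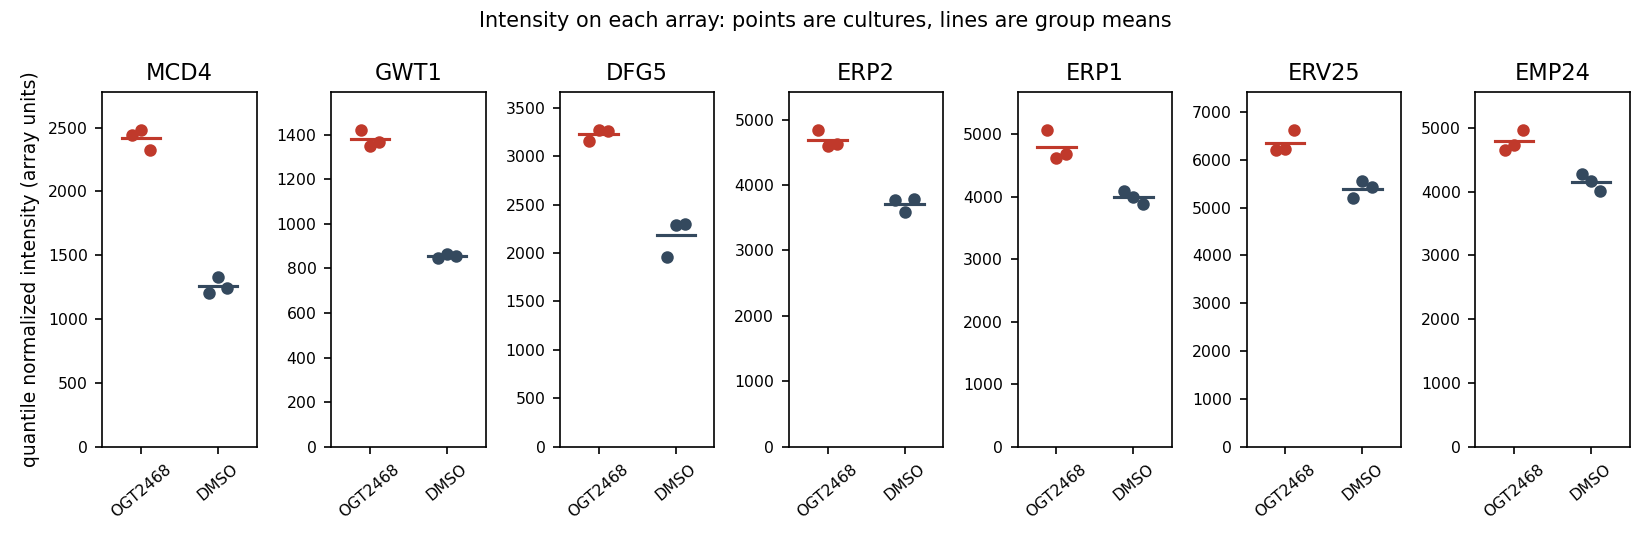
Quantile normalized intensity of 7 genes on each of the 6 arrays, OGT2468 left and DMSO right in each panel, with 1 point per culture and a line at the group mean, on axes that start at 0. In all 7 panels the 3 OGT2468 points lie above the 3 DMSO points, by a wide margin in MCD4 and GWT1 and by a narrow one in EMP24, ERV25 and ERP1.

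The enzyme that starts the anchor, which transfers N-acetylglucosamine (GlcNAc) to phosphatidylinositol, has 6 measured subunits, and none passed. SPT14, also called GPI3 and the catalytic subunit, was at 382, 325 and 356 in OGT2468 and at 338, 383 and 313 in DMSO. The groups overlapped fully, with a log2 change of 0.04 (interval -0.21 to 0.28). The subunits did not share a sign, since GPI1 had a change of 0.18 and GPI19 one of -0.23, the lowest of all 34. GPI19 was at 94.9, 114 and 137 in OGT2468 and at 136, 146 and 129 in DMSO. OGT2468 replicate 3 lay among its DMSO values, and the interval of -0.54 to 0.08 was among the widest. GPI2 (-0.06), GPI15 (-0.12) and ERI1 (-0.10), which also binds Ras, lay between these. The median of the 6 was -0.08.

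Mannose is added by GPI14 with its partner PBN1, then by GPI18 and GPI10, and these 4 genes had the narrowest range of changes of the 8 roles, from -0.07 (GPI10) to 0.04 (GPI18). GPI14, which adds the first mannose, was at 834, 795 and 807 in OGT2468, against 837, 836 and 833 in DMSO. The highest OGT2468 culture lay within the DMSO values and the other two just below them. The interval of its change was -0.17 to 0.09, and that of PBN1 was -0.15 to 0.16. SMP3, which adds the fourth mannose and is not among the 34, had a change of 0.02.

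None of the 5 subunits of the GPI transamidase, which cuts the signal from the end of the protein and joins the anchor in its place, passed. GPI8, the catalytic subunit, was at 606, 505 and 588 in OGT2468 and at 544, 511 and 528 in DMSO. The OGT2468 cultures reached both above and below the DMSO ones, and the change was 0.10 (interval -0.11 to 0.31). GPI17 was at 1919, 1803 and 1639 in OGT2468 and at 1570, 1640 and 1468 in DMSO. OGT2468 replicate 3 lay level with DMSO replicate 2 and the other cultures did not overlap, with a change of 0.19 (interval -0.01 to 0.40; adjusted p = 0.330). GPI16 was higher on each OGT2468 array than on any DMSO array, with a change of 0.11 that did not pass (adjusted p = 0.451). GAA1 (-0.12) and GAB1 (-0.01) completed the complex, whose median was 0.10.

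Once the anchor is on the protein, BST1 removes the fatty acid from the inositol, PER1 removes a fatty acid of the lipid, GUP1 adds a very long one, CWH43 takes part in the exchange for ceramide, and TED1 and CDC1 act on the ethanolamine phosphates of the second and the first mannose. None of these 6 genes passed, and their changes ran from -0.01 (PER1) to 0.12 (CDC1). CDC1, which acts on the group that MCD4 places, was at 1668, 1796 and 1943 in OGT2468 and at 1613, 1753 and 1596 in DMSO. The groups overlapped, and the interval of its change was -0.08 to 0.32. BST1 was at 982, 1006 and 943 in OGT2468, against 928, 918 and 896 in DMSO. Its groups did not overlap, but the change was 0.09 and did not pass (adjusted p = 0.486). CWH43 (0.10), TED1 (0.01) and GUP1 (0.00) did not pass either, and the DMSO cultures of TED1 ranged from 2671 to 3485.

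The 4 p24 genes EMP24, ERV25, ERP1 and ERP2 encode the subunits of a receptor complex that gathers remodelled GPI proteins into COPII vesicles. All 4 had positive changes and groups that did not overlap, but none passed over all probe sets tested. Of all named genes 15.5% had each OGT2468 array above every DMSO array. With no scaling between arrays or control scaling the groups of all 4 overlapped, and with upper-quartile scaling those of ERV25 did. The changes of ERV25 and EMP24 were slightly below 0 with no scaling. ERP2 was at 4840, 4590 and 4623 in OGT2468, against 3767, 3582 and 3784 in DMSO. Its log2 change of 0.33 ± 0.06 (SE, 3 cultures per group) came closest to the threshold (limma adjusted p = 0.0512). ERP1 was at 5070, 4619 and 4693 in OGT2468 and at 4101, 4005 and 3882 in DMSO, a change of 0.26 ± 0.06 (adjusted p = 0.123). ERV25 was at 6206, 6226 and 6622 in OGT2468 and at 5207, 5547 and 5431 in DMSO, a change of 0.23 ± 0.06 (adjusted p = 0.134). The DMSO values of both genes were all below the OGT2468 ones. EMP24 was at 4662, 4738 and 4969 in OGT2468, against 4279, 4176 and 4012 in DMSO, a change of 0.20 ± 0.06 (adjusted p = 0.173).

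The calls of the p24 genes changed with the probe sets tested and with the pseudocount. The 8968 tested probe sets include 3470 without a gene name, of which 7.44% were above background on at least 3 arrays, against 96.4% of those with an S. cerevisiae gene. When the 5498 named probe sets were normalized and tested alone, ERP2 (adjusted p = 0.0109), ERP1 (0.0388) and ERV25 (0.0453) rose, EMP24 did not (0.0642), and 6 of the 34 genes were higher and none lower. In that test 5.93% of all probe sets were higher and 3.69% lower. The same 3 p24 genes rose when dim probe sets were left out, and when all 8968 were tested with a pseudocount of 64 in place of 16 (adjusted p = 0.0100 for ERP2, 0.0420 for ERP1 and 0.0484 for ERV25). None of the 4 was called with no scaling, control scaling, upper-quartile scaling, a pseudocount of 1 or the replicate block. Nor was any called in the fits that leave out 1 array. In these settings without a call the limma adjusted p of ERP2 was 0.0733 to 0.821.

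The scaling between arrays set the sign of many small changes and moved the genes together. The median over all named genes, -0.02 in the values above, was -0.27 with no scaling and -0.18 with scaling on the hybridization controls. Of the 34 genes 17 then had the opposite sign with no scaling and 14 with control scaling, none of them among MCD4, GWT1 and DFG5. Relative to the median of all named genes the change of MCD4 was 0.91 to 0.95 under the 4 scalings, that of GWT1 0.67 to 0.70, that of DFG5 0.56 to 0.58 and that of ERP2 0.35 to 0.37. On that relative scale the change was 0.27 to 0.28 for ERP1, 0.25 to 0.28 for ERV25 and 0.22 to 0.24 for EMP24. No scaling, control scaling and upper-quartile scaling differ only by a factor per array, which subtracting the median largely removes. The narrow ranges follow from that and do not test the choice of scaling.

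**Figure D3:**
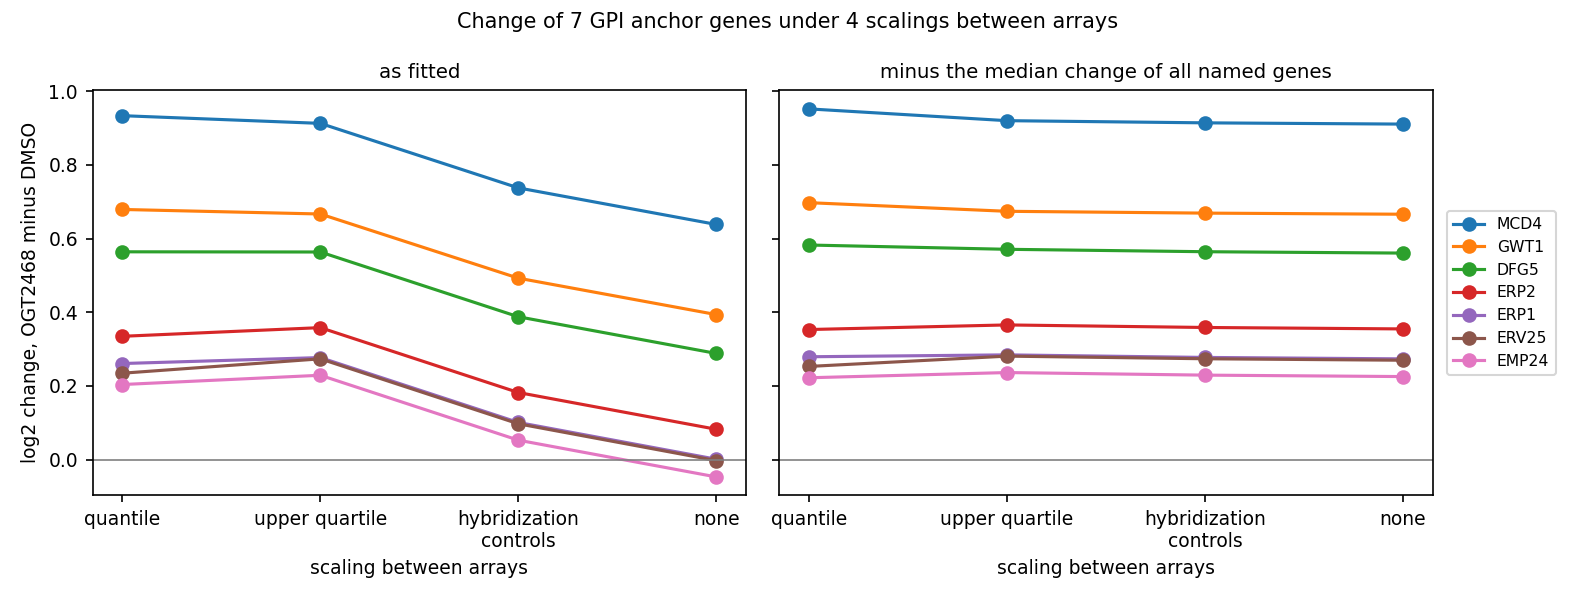
Log2 change of 7 genes, OGT2468 minus DMSO, under 4 scalings between arrays (horizontal axis), as fitted on the left and after subtracting the median change of the 5449 named genes on the right, with 1 coloured line per gene. As fitted, MCD4 runs from 0.93 with quantile normalization to 0.64 with none and EMP24 from 0.20 to -0.05. The lines on the right are nearly flat, because subtracting the median largely removes any factor shared by a whole array.

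Genes that supply or neighbour the pathway were described from lists chosen by name. As background, 2.72% of all named genes were higher and 1.10% lower. Of 13 genes for sugar and lipid donors and for SMP3, 1 rose and none fell, with a median change of 0.11, which was -0.09 with no scaling. The gene that rose was GFA1, the first enzyme on the route to UDP-GlcNAc, which also feeds chitin synthesis. GFA1 was at 6120, 6001 and 6094 in OGT2468, against 4139, 4197 and 3995 in DMSO, a difference of 0.56 ± 0.06 in log2 units (SE, 3 cultures per group; limma adjusted p = 0.00719). The call held without any 1 array, but it was lost with no scaling (change 0.32), control scaling (0.42), upper-quartile scaling and the replicate block. The other genes of the mannose and GlcNAc routes did not pass. PMI40, the phosphomannose isomerase, had a change of 0.36 (adjusted p = 0.0567), PCM1 one of 0.30, and DPM1, which makes dolichol phosphate mannose, one of 0.29. The changes were smaller for PSA1 (0.11) and SEC53 (0.09), and slightly below 0 for QRI1 (-0.01) and GNA1 (-0.02). In the 3 settings that added p24 calls (a pseudocount of 64, dim probe sets left out, named probe sets alone), 4 of the 13 donor genes were higher. Over all probe sets 292 of 8968, 350 of 5557 and 326 of 5498 were higher in these settings, in the same order. None of the 13 was higher with no scaling, control scaling, upper-quartile scaling or the replicate block.

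Of 9 genes of the COPII coat and ER exit 1 rose, SFB2, a relative of the cargo adaptor gene SEC24. It was at 2091, 1720 and 1874 in OGT2468 and at 1253, 1206 and 1266 in DMSO, a difference of 0.60 ± 0.09 in log2 units (SE, 3 cultures per group; limma adjusted p = 0.0265). Of the 6 fits that leave out 1 array, the call held only in the one without OGT2468 replicate 2, and it was lost with no scaling (0.33), control scaling (0.42), a pseudocount of 1 and the replicate block. With dim probe sets left out or the named probe sets alone, 2 of the 9 were higher. Over all probe sets 350 of 5557 and 326 of 5498 were higher in these settings, in the same order. All 9 had changes above 0, with a median of 0.20, which was -0.08 with no scaling, and SEC24 itself (0.24) did not pass. The 5 p24 proteins outside the GPI cargo receptor list, ERP3 to ERP6 and RRT6, had changes between -0.16 and 0.04, and none passed. Of 7 ceramide synthesis genes none passed, with a median of 0.03.

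The parallel machinery of N-glycosylation gave no call over all tested probe sets with a pseudocount of 16. None of 9 subunits of oligosaccharyltransferase, the enzyme that attaches a sugar chain to proteins where the transamidase attaches an anchor, passed, and their median was 0.06. Of 17 measured genes for the lipid-linked sugar chain, out of 18 listed, none passed, with a median of 0.06. The largest change among them was that of ALG6 (0.38, adjusted p = 0.0651). With dim probe sets left out or the named probe sets alone, 1 oligosaccharyltransferase gene was higher, and 1 gene for the sugar chain was higher and 1 lower, as with a pseudocount of 64 for the sugar chain alone. Over all probe sets 350 of 5557 were higher and 227 lower with dim probe sets left out. With the named probe sets alone 326 of 5498 were higher and 203 lower, and with a pseudocount of 64 it was 292 and 187 of 8968. These medians are descriptions of small lists, and their differences from the 34 genes were not tested.

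**Figure D4:**
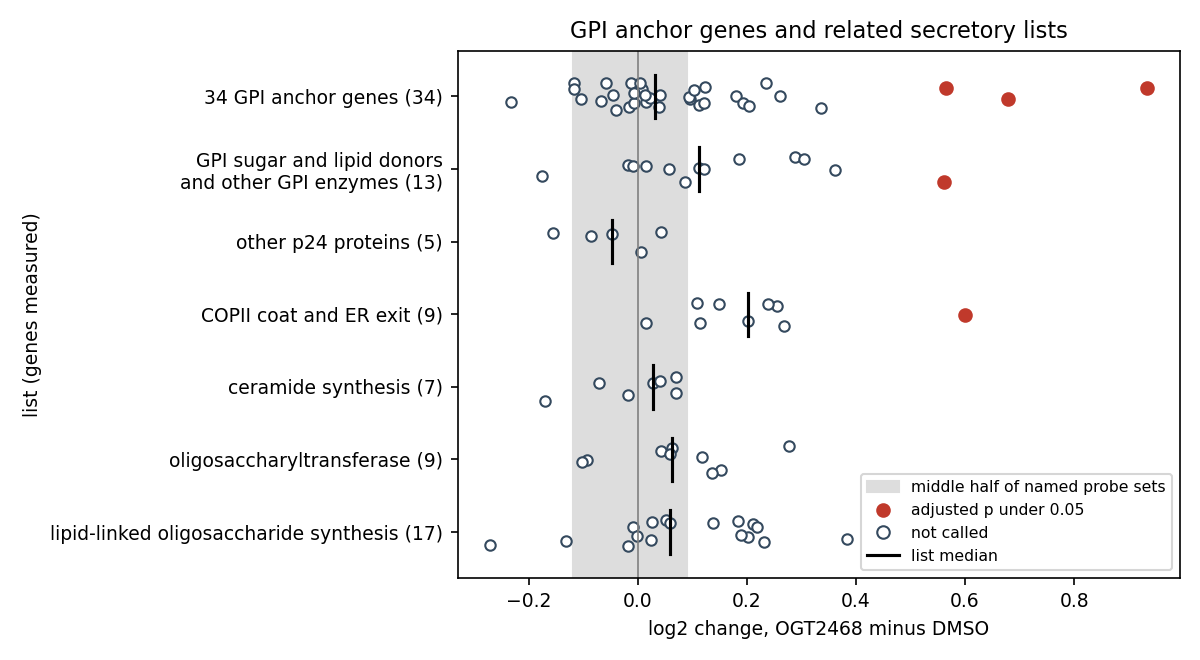
Log2 change, OGT2468 minus DMSO, of each gene in the 34 GPI anchor genes and in 6 related lists, with 1 point per gene, a black line at the list median and a grey band over the middle of all named probe sets (first to last quartile). Filled points are the genes that rose, 3 of 34 for the anchor list, 1 of 13 for donors (GFA1) and 1 of 9 for the COPII coat (SFB2), and no point is filled on the left.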

How the data were processed

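The 6 samples were grouped and numbered by their titles. The authors deposited 1 linear intensity per probe set and array. The submitters' processing notes name GCRMA, with the version not given in the sources used, yet the deposited intensities are linear and differ in distribution between arrays. Of 10928 probe sets, named through GEO's annotation and the R64 gene table (names only), 5498 had 1 S. cerevisiae gene, 1747 belonged to another species and 213 were controls, and the last 2 classes were not tested. Background was set at percentile 98 of the other-species signals on each array, 21.8 to 25.9 intensity units.

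The other 8968 probe sets were quantile normalized, 16 was added and log2 was taken, a scale that understates changes of dim genes. limma 3.58.1 in R 4.3.3 (lmFit, eBayes), checked on simulated data, compared OGT2468 with DMSO without covariates, with Benjamini-Hochberg adjustment over all tested probe sets at 0.05. Intervals are the 95% intervals of that fit, whose precision the number of arrays limits. Same-numbered cultures were not taken as pairs. The members, lists and alternatives were chosen with earlier results of these data known. All 34 genes are named, and of other lists up to 6 genes that passed, by size of change, plus pathway neighbours named after their values were seen.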

Additional observations from a re-analysis of the deposited data

How the results depend on the processing

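The count of 3 higher genes of the 34 was 0 with no scaling between arrays, 1 with scaling on the hybridization controls (MCD4), 2 with scaling on the upper quartile or a pseudocount of 1, and 6 when the pseudocount was 64, with dim probe sets left out or with the named probe sets alone. Without any 1 array it was 2, and none of the 34 was lower in any of these settings. The fit with the replicate block gave 1 (MCD4, adjusted p = 0.0426), without GWT1 and DFG5. Same-numbered cultures correlated at 0.062, 0.044 and 0.0091 in their deviations from the group means over all tested probe sets, and at 0.193, 0.136 and 0.0551 over the named ones. The median change of 0.03 was -0.25 with no scaling, -0.15 with control scaling and 0.0085 to 0.0677 without 1 array. Over all tested probe sets 164 were higher and 68 lower, against 22 and 44 with no scaling, 46 and 55 with control scaling, 292 and 187 when the pseudocount was 64, 350 and 227 with dim probe sets left out, 326 and 203 with the named probe sets alone, 27 and 14 with the replicate block, and 61 to 91 and 28 to 40 without 1 array. Where the number of probe sets tested or of arrays was smaller, that is part of the alternative. The cause of the other differences was not tested. All 34 genes were above background on every array, with GPI19 closest to it.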

Other observations

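Of 47 measured genes for GPI-anchored proteins, out of 48 listed, 7 rose and 6 fell, with changes from -1.76 to 2.47 and a median of 0.05, which was -0.20 with no scaling between arrays. The 7 are 14.9% of the list. Over all named genes 2.72% were higher and 1.10% lower. Higher and lower calls numbered 1 and 6 with no scaling, 3 and 7 with control scaling, 7 and 5 with upper-quartile scaling, 6 and 2 with a pseudocount of 1, 2 and 2 with the replicate block, and 9 and 10 with a pseudocount of 64, dim probe sets left out or the named probe sets alone. With the named probe sets alone, 5.93% of all of them were higher and 3.69% lower. Without 1 array 6 or 7 rose and 0 to 4 fell. The surface protease genes YPS3 (2.47) and YPS1 (0.99) rose without any 1 array, and the call of YPS1 was lost with no scaling. FIG2 (-1.76) and AGA1 (-1.24), which act in mating, fell, as did FLO11 (-1.25), a flocculin gene, and FIT2 (-1.13), a wall mannoprotein gene of iron uptake. The calls of FLO11 and FIT2 were lost without any 1 array, that of AGA1 without any 1 array other than OGT2468 replicate 2, and that of FIG2 without DMSO replicate 3 or OGT2468 replicate 3. A pseudocount of 1 also lost FLO11, FIT2 and AGA1, and the replicate block FLO11 and AGA1.

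Genes next to the 34 on the chromosome were also read from the order of genes in the R64 assembly. Of 65 measured adjacent protein-coding genes 1 rose and 1 fell, RCR1 (0.85), beside GPI18, and STE2 (-1.09), beside BST1. Over all named genes 2.72% were higher and 1.10% lower, so these counts do not stand out. GPI18 (0.04) and BST1 (0.09) themselves did not pass. MCD4 (0.93) lies between TPK3 (0.04) and PIR1 (0.24), neither of which passed. Among genes 1 place further out, PIR3 (3.48, near MCD4) and PAU4 (0.60, near GAB1) rose, and PRM2 (-2.14, near TED1) and GYP8 (-0.63, near BST1) fell. The genes adjacent to GWT1, SRS2 (0.14) and DPB11 (0.19), and to DFG5, BCH1 (-0.05) and RNT1 (-0.25), did not pass.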
